A study of Mus musculus with 10 samples.

Results

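The 40 genes described here encode carboxylesterases, UDP-glucuronosyltransferases and cytosolic sulfotransferases, measured in mouse liver cells of an EP300 deletion experiment. They are the protein-coding genes whose symbols start with Ces1, Ces2, Ces3, Ugt1a, Ugt2a, Ugt2b, Ugt3a or Sult and that had 10 or more counts in at least 2 of the 4 libraries. The mm10 annotation held 59 coding genes with such symbols, and 40 of them passed, out of 55385 genes in the count table. All 40 were among the 14200 genes tested. They comprise 13 carboxylesterases, 16 glucuronosyltransferases and 11 sulfotransferases.

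The study asked what EP300, a histone acetyltransferase and transcriptional coactivator, does when liver tumours start in mice of the C57BL/6J 129SV strain. The 2 libraries labelled EP300 KO came from EP300f/f mice injected with AAV-TBG-Cre, which makes Cre recombinase from the hepatocyte-directed TBG promoter. The 2 libraries labelled EP300 WT carry the genotype EP300f/f, thus the same floxed alleles, and came from mice injected with AAV-TBG-GFP. Both groups received a diet with DDC, a toxin that injures hepatocytes and bile ducts, together with hydrodynamic injection of the pT3-cMet plasmid, for 5 months. After perfusion the cells were sorted, by a gate that the labels do not name. The library titles of both groups start with HCC, for hepatocellular carcinoma, and the share of tumour cells was not tested. No label ties a library to an animal, so p-values speak of the spread among libraries alone, and that spread may be technical. A further 6 libraries of a diet comparison were not used here.

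The KO-labelled libraries held 17709799 and 17811489 counts, and the WT-labelled libraries held 18575701 and 18831671. Ep300 itself was at 73.7 and 72.3 CPM (the count scaled to the depth of its library) in the KO-labelled libraries, against 62.3 and 57.9 CPM in the WT-labelled libraries. The count over the whole gene was thus above that of the WT label (log2 fold change 0.28, SE 0.07, adjusted p 0.00498 by edgeR's quasi-likelihood test), and such a count cannot show whether an exon was deleted. Directions below are those between the labels. Summed levels of 8 hepatocyte markers were 89631 and 91302 CPM in KO-labelled libraries and 91810 and 91331 CPM in WT-labelled libraries. Of these 8, 5 were called higher and 1 lower. Alb, the marker called lower, made up most of each sum, at 71371 and 73851 CPM, against 78346 and 78091 CPM. Among the 5 called higher, Tat rose most, by 0.90 log2 units. The near-equal sums thus chiefly reflect Alb. Macrophage markers (3 higher and 2 lower of 8) summed to 601 and 607 CPM under the KO label and to 609 and 603 CPM under the WT label. Endothelial markers (5 lower of 8) summed to 251 and 221 CPM, against 300 and 292 CPM. Stellate and fibroblast markers (4 lower of 8) summed to 188 and 181 CPM, against 291 and 282 CPM. Of the latter, Reln differed most, at 30.9 and 32.9 CPM, against 119 and 113 CPM. Col1a2, Dcn, Lrat and Des were not called. Erythroid markers (2 higher of 4 tested, chiefly Alas2) summed to 57.2 and 53.1 CPM under the KO label and to 13.1 and 12.6 CPM under the WT label. Cholangiocyte markers stayed at or under 32.0 CPM summed, neutrophil markers at or under 8.99 CPM and lymphocyte markers at or under 0.676 CPM in every library. The part of other cell types in the results below was not tested. In bulk libraries, fewer cells of a type and less RNA per cell cannot be told apart.

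Carboxylesterases cleave ester and amide bonds of drugs, toxins and lipids in the endoplasmic reticulum of hepatocytes, and mice carry several tandem copies of each kind. Glucuronosyltransferases then join glucuronic acid from UDP-glucuronic acid to bilirubin, bile acids, steroids and drugs, and sulfotransferases join a sulfo group from PAPS to phenols and steroids. The conjugates are water-soluble and leave the hepatocyte through export pumps into bile or blood.

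Of the 40 genes, 22 rose and 9 fell in the KO-labelled libraries, and 9 were not called, at an adjusted p under 0.05 in the edgeR quasi-likelihood fit over all genes. That is 77.5% of the members called, against 34.2% of all genes tested, with 55.0% higher against a background of 16.7% and 22.5% lower against 17.5%. At least 2-fold rises were found in 15 members (37.5%, background 3.15%) and at least 2-fold falls in 4 of 40 (background 5.01%). Scaled by library size alone, 1846 of all genes were higher and 3056 lower, in place of 2366 and 2485, while 22 members were higher and 10 lower. The median log2 fold change was 0.52 over the members and -0.01 over all genes tested. Values of the 2 groups did not overlap in 36 members, and in 66.4% of all genes tested. The members with overlap were Ces1b, Ugt1a1, Ugt2b37 and Sult2a5. Sult1d1 counts among the 36 by a margin below the printed digits, with KO replicate 1 and WT replicate 1 both at 146 CPM.

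The 3 enzyme classes differed in how single changes added up. Summed over 13 genes, the carboxylesterases were at 5831 and 5621 CPM in KO-labelled libraries and at 4125 and 3969 CPM in WT-labelled libraries. The 16 glucuronosyltransferases summed to 2900 and 2648 CPM in KO-labelled libraries and to 1641 and 1659 CPM in WT-labelled libraries. For the 11 sulfotransferases the sums were 744 and 660 CPM under the KO label and 716 and 697 CPM under the WT label. The sulfotransferase sums overlapped between the groups, with a ratio of means of 0.994, although 7 of their 11 genes were called.

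**Figure D1:**
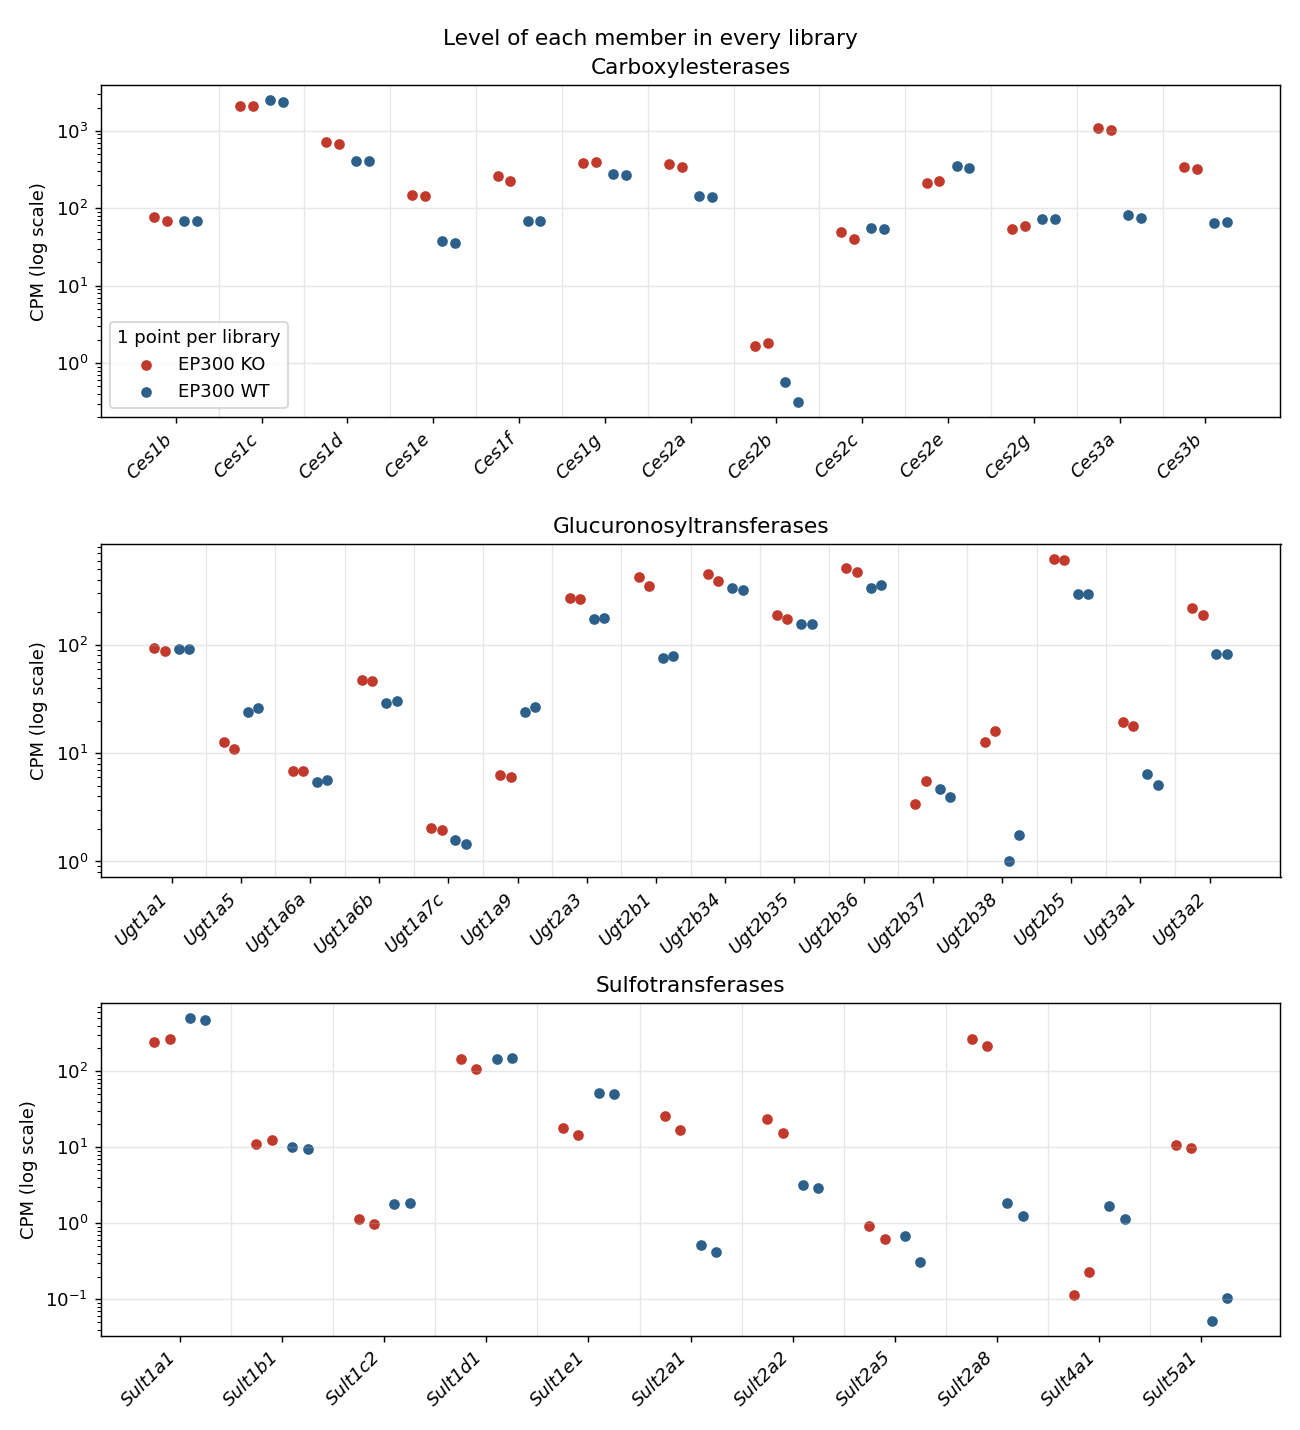
Level of each member (CPM, log axis) in the 2 EP300 KO libraries (red, left) and the 2 EP300 WT libraries (blue, right), 1 point per library, in 3 panels by enzyme class. The groups are far apart for Ces3a, Ugt2b38, Sult2a1, Sult2a8 and Sult5a1, and meet or overlap for Ces1b, Ugt1a1, Ugt2b37, Sult1d1 and Sult2a5.

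Among the Ces1 genes, a tandem block on chromosome 8, 4 rose, 1 fell and 1 was not called, with a median log2 fold change of 0.67. Ces1c (ENSMUSG00000057400, chr8:93099015-93131283, minus strand), which encodes the carboxylesterase that mouse liver secretes into plasma, had the family's highest level per kilobase of exon, 904 CPM per kb under the KO label and 1050 under the WT label. It was at 2098 and 2101 CPM in KO-labelled libraries, against 2498 and 2380 CPM in WT-labelled libraries. Both KO-labelled libraries lay below both WT-labelled ones. Ces1c was the only Ces1 gene that fell, by 0.22 on the log2 scale (SE 0.05, edgeR adjusted p 0.00227), and the call was lost without WT replicate 1 (adjusted p 0.152) or WT replicate 2 (adjusted p 0.0724). Its share of the family sum was 57.4% in KO-labelled libraries and 74.2% in WT-labelled libraries.

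Ces1e and Ces1f lay more than 1 log2 unit above the Ces1 median. Ces1e (chr8:93201218-93229619, minus strand), or egasyn, which holds β-glucuronidase in the endoplasmic reticulum, was at 149 and 143 CPM in KO-labelled libraries and at 38.0 and 35.9 CPM in WT-labelled libraries. It rose by 1.99 log2 units (SE 0.07, edgeR adjusted p 2.77e-12), or 3.96-fold. Ces1f (chr8:93256236-93279747), a triacylglycerol hydrolase, was at 263 and 225 CPM under the KO label and at 68.2 and 68.7 CPM under the WT label. Its rise was 1.83 log2 units (SE 0.07, edgeR adjusted p 2.36e-11). For both genes the lower KO-labelled library was above 3 times the higher WT-labelled one.

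The other Ces1 genes moved less. Ces1d, the triacylglycerol hydrolase of the endoplasmic reticulum that serves lipoprotein assembly, was at 722 and 677 CPM in KO-labelled libraries and at 405 and 403 CPM in WT-labelled libraries, and rose by 0.79 log2 units. Ces1g, an esterase with cholesteryl ester and triacylglycerol activity, was at 390 and 400 CPM, against 276 and 267 CPM, and rose by 0.54. Ces1b was at 76.5 and 68.7 CPM in KO-labelled libraries and at 69.0 and 69.3 CPM in WT-labelled libraries, values that overlapped (log2 fold change 0.07, edgeR adjusted p 0.492). The Ces1 sum was 3657 ± 59.5 CPM under the KO label and 3289 ± 91.4 CPM under the WT label (SD, n = 2 each), a log2 ratio of 0.15, with Ces1c lower and 4 genes higher.

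The Ces2 genes, microsomal esterases that prefer substrates with a small acyl group, split into 2 that rose and 3 that fell (median -0.30), or 1 and 1 without WT replicate 2. Ces2a (ENSMUSG00000055730, chr8:104734003-104741634, plus strand), an esterase of mouse liver that also acts on lipids, was at 371 and 342 CPM in KO-labelled libraries and at 144 and 140 CPM in WT-labelled libraries. It rose against the direction of most of its family, by 1.33 log2 units (SE 0.06, edgeR adjusted p 1.16e-10). Ces2e was at 215 and 227 CPM in KO-labelled libraries, against 352 and 335 CPM in WT-labelled libraries, and fell by 0.64 log2 units (SE 0.06, edgeR adjusted p 4.06e-07). The order of these genes by level per kb differed between the labels: Ces2a led with 151 CPM per kb, over 81.8 for Ces2e, under the KO label, while Ces2e led with 127 CPM per kb, over 60.2 for Ces2a, under the WT label. Ces2a made up 52.4% of the Ces2 sum in KO-labelled libraries and 23.2% in WT-labelled libraries.

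Ces2b, the second Ces2 gene that rose, was near the count minimum, with 1.68 and 1.84 CPM in KO-labelled libraries and 0.579 and 0.312 CPM in WT-labelled libraries (61 counts against 17). Its log2 fold change was 1.97 (SE 0.41, edgeR adjusted p 0.00155), and the call was lost without WT replicate 2 (adjusted p 0.061). Ces2g was at 54.3 and 58.6 CPM in KO-labelled libraries, against 72.3 and 72.9 CPM in WT-labelled libraries, and fell by 0.36 log2 units, a call lost without WT replicate 2 (adjusted p 0.0535). Ces2c was at 49.5 and 39.9 CPM under the KO label and at 55.7 and 54.3 CPM under the WT label. Its fall of 0.30 log2 units (edgeR adjusted p 0.0183) was the least stable of the family: without KO replicate 2 the log2 fold change was -0.14 (adjusted p 0.167), without WT replicate 1 the adjusted p was 0.202 and without WT replicate 2 it was 0.186. DESeq2 also left it uncalled (adjusted p 0.0603). Of the 50-base stretches of Ces2c transcripts, 36.1% also occur in another gene's transcripts. The Ces2 sum was 680 ± 15.6 CPM under the KO label and 613 ± 15.9 CPM under the WT label (SD, n = 2 each).

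Both Ces3 genes rose, with a summed level of 1389 ± 73.4 CPM under the KO label and 144 ± 3.16 CPM under the WT label (SD, n = 2 each). Ces3a (ENSMUSG00000069922, chr8:105048601-105058413, plus strand), which encodes a liver esterase, was at 1100 and 1016 CPM in KO-labelled libraries, against 82.4 and 74.7 CPM in WT-labelled libraries. Every KO-labelled value was above every WT-labelled value by more than 10 times. The rise was 3.75 log2 units (SE 0.07, edgeR adjusted p 1.78e-15), or 13.5-fold. Ces3b (chr8:105083753-105093929), its neighbour on the same strand, was at 340 and 321 CPM under the KO label and at 64.0 and 67.2 CPM under the WT label, and rose by 2.33 log2 units (SE 0.06, edgeR adjusted p 2.03e-13). Ces3a alone accounted for 18.5% of all carboxylesterase CPM in KO-labelled libraries and for 1.94% in WT-labelled libraries. The pair's coding sequences are 95.3% identical, and 25.6% of the 50-base stretches of the Ces3a transcripts and 26.2% of those of Ces3b also occur in another gene's transcripts.

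**Figure D2:**
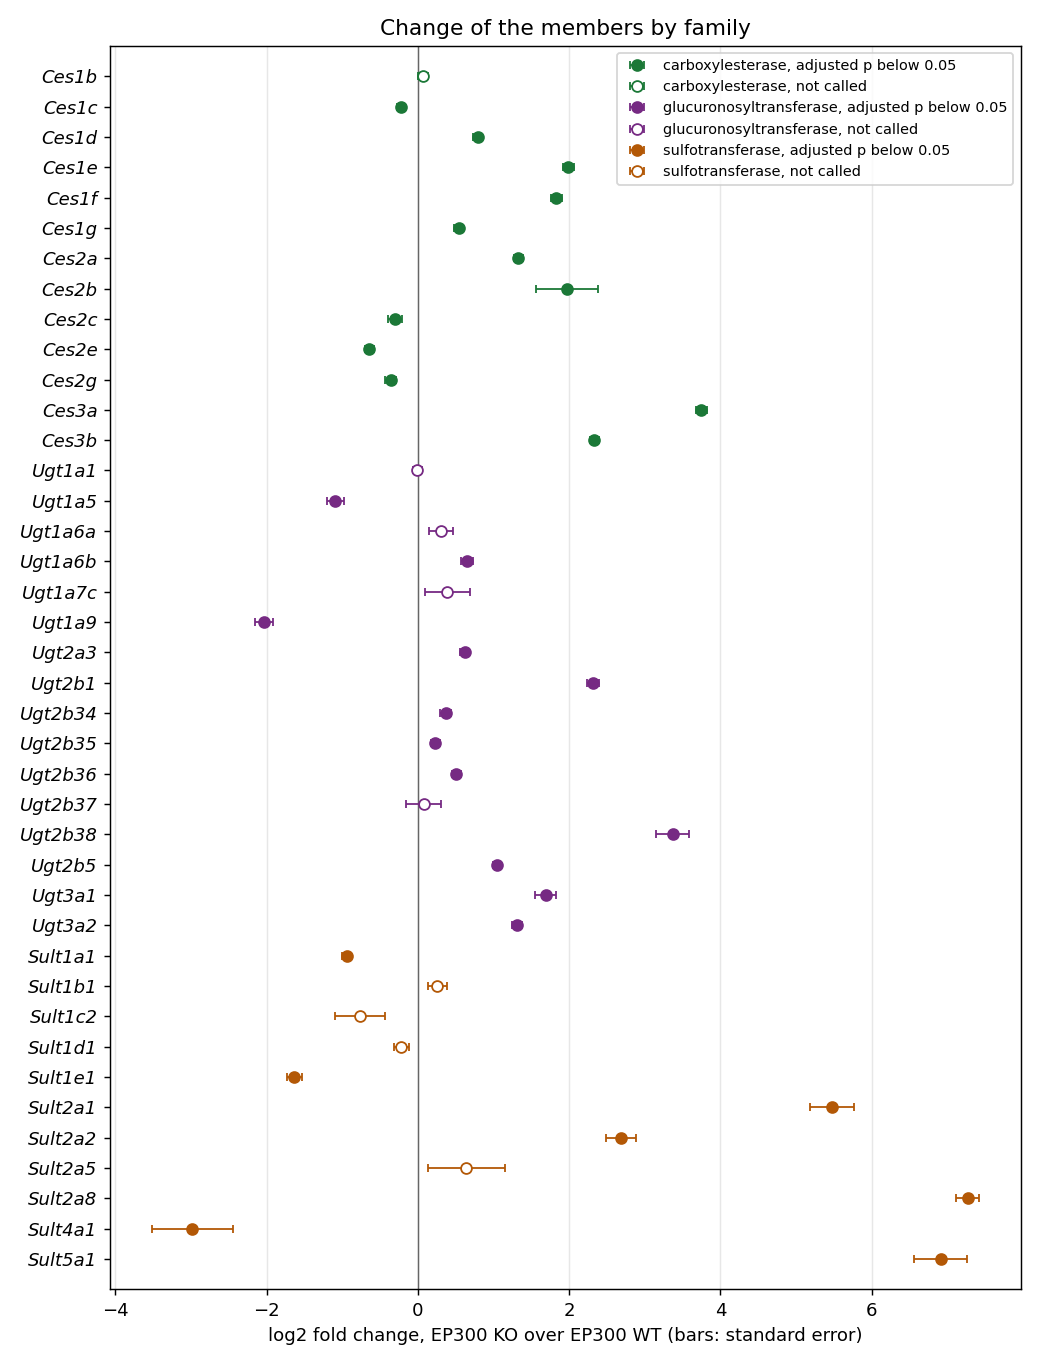
Log2 fold change of each member, EP300 KO over EP300 WT, with its standard error, in family order from Ces1b at the top to Sult5a1 at the bottom; filled points passed an adjusted p of 0.05. Values run from -2.98 for Sult4a1 to 7.27 for Sult2a8, and the widest bars belong to genes with few counts (Ces2b, Sult2a5 and Sult4a1).

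The Ugt1a genes on chromosome 1 share their last exons, each with a first exon of its own, so reads from the shared part cannot be assigned to one of them. From 50.3% of exon bases in Ugt1a6a to 82.7% in Ugt1a1 lie in exons annotated to more than 1 gene, and their single values are uncertain for that reason. Within this limit, 1 rose, 2 fell and 3 were not called. Ugt1a9 (ENSMUSG00000090175, chr1:88070800-88218997, plus strand), which conjugates phenols and, in humans, drugs such as propofol, was at 6.25 and 6.09 CPM in KO-labelled libraries, against 23.9 and 26.5 CPM in WT-labelled libraries. It fell by 2.03 log2 units (SE 0.12, edgeR adjusted p 2.02e-09). Ugt1a5 (chr1:88166012-88218997) was at 12.6 and 10.9 CPM under the KO label and at 23.8 and 26.2 CPM under the WT label, and fell by 1.09 log2 units (SE 0.11, edgeR adjusted p 1.26e-06).

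Ugt1a1 (ENSMUSG00000089960, chr1:88211959-88218997, plus strand), the enzyme that conjugates bilirubin, had the highest level per kb of the family, 41.1 CPM per kb under the KO label and 41.5 under the WT label. Its values of 94.6 and 88.3 CPM in KO-labelled libraries enclosed the 92.0 and 92.6 CPM of the WT-labelled libraries (log2 fold change -0.01, SE 0.06, edgeR adjusted p 0.893). Ugt1a6b, a phenol-conjugating isoform, was at 47.3 and 46.0 CPM in KO-labelled libraries, against 29.3 and 30.2 CPM in WT-labelled libraries. It was the only Ugt1a gene that rose, by 0.65 log2 units (SE 0.08, edgeR adjusted p 8.07e-06). Ugt1a6a, whose coding sequence is 98.4% identical to that of Ugt1a6b, was at 6.83 and 6.84 CPM under the KO label and at 5.37 and 5.66 CPM under the WT label (adjusted p 0.166 by edgeR), and reads of this pair can hardly be told apart. Ugt1a7c was low in every library, at 2.03 and 1.95 CPM under the KO label and at 1.58 and 1.46 CPM under the WT label (edgeR adjusted p 0.351). The Ugt1a sum was 165 ± 6.74 CPM under the KO label and 179 ± 4.61 CPM under the WT label (SD, n = 2 each). When levels were divided by unshared exon length only, a choice made after seeing the data, Ugt1a1 still ranked first (237 CPM per kb under the KO label and 240 under the WT label).

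The promoter windows of Ugt1a1 and Ugt1a9 are shown because one gene did not change and the other fell 4.08-fold, while both windows hold the letters GTTAATNAT, a motif of the hepatocyte factor HNF1. Windows run from 250 bases before to 50 bases after the RefSeq start (GRCm38.p6, the assembly of mm10), and capitals mark motif matches on either strand, including AGGTCA, a nuclear receptor half-site, in Ugt1a9. The Ugt1a1 window lies at chr1:88211709-88212008 and the Ugt1a9 window at chr1:88070529-88070828, both on the plus strand.
Ugt1a1: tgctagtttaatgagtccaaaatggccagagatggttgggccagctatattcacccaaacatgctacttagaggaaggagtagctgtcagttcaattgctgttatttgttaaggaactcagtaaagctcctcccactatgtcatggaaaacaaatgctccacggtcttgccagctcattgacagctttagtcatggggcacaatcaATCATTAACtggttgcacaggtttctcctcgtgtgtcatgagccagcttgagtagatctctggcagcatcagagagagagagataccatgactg
Ugt1a9: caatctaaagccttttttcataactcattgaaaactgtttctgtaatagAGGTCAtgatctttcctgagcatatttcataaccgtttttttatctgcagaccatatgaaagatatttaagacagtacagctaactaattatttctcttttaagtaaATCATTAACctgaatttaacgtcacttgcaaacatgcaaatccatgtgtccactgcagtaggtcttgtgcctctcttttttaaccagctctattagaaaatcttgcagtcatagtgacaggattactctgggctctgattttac
GTTAATNAT was found on either strand in 0.808% of all 32544 promoter windows and in 4 of the 31 members with a window, namely Ugt1a1, Ugt1a9, Sult1d1 and Sult2a5. Of these only Ugt1a9 was called. Both matches read ATCATTAAC on the printed strand, 44 bases before the start in Ugt1a1 and 94 bases before it in Ugt1a9. Over their whole length the windows are 48.0% identical. A match describes letters and does not show binding.

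The Ugt2b genes of chromosome 5, the main steroid- and bile-acid-conjugating group, moved in 1 direction: 6 of 7 rose, none fell, and Ugt2b37 was not called (median 0.51). Ugt2b5 (ENSMUSG00000054630, chr5:87124960-87140318, minus strand) was at 620 and 612 CPM in KO-labelled libraries, against 297 and 296 CPM in WT-labelled libraries, values that were nearly equal within each label. It rose by 1.05 log2 units (SE 0.05, edgeR adjusted p 3.65e-10) and had the family's highest level under the KO label, 331 CPM per kb. Of the 50-base stretches of its transcripts, 41.7% also occur in another gene's transcripts, so its level and rank are uncertain to that extent. Under the WT label Ugt2b36 was highest, with 168 CPM per kb over 160 for Ugt2b5. Ugt2b36 was at 518 and 468 CPM in KO-labelled libraries, against 337 and 357 CPM in WT-labelled libraries (log2 fold change 0.51, SE 0.06, edgeR adjusted p 8.57e-06).

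Ugt2b1 and Ugt2b38 were the outliers of the family. Ugt2b1 (ENSMUSG00000035836, chr5:86916638-86926530, minus strand) was at 422 and 351 CPM in KO-labelled libraries, against 75.0 and 79.4 CPM in WT-labelled libraries. It rose by 2.32 log2 units (SE 0.08, edgeR adjusted p 3.19e-12), or 5.01-fold, and its share of the Ugt2b sum was 18.2% under the KO label and 6.39% under the WT label. None of the 50-base stretches of its transcripts occurs in another gene (0%). Ugt2b38 (ENSMUSG00000061906, chr5:87409942-87424203, minus strand) was at 12.7 and 16.0 CPM in KO-labelled libraries and at 1.00 and 1.77 CPM in WT-labelled libraries. Its rise of 3.37 log2 units (SE 0.22, edgeR adjusted p 7.62e-09) is uncertain in size, since its coding sequence is 97.0% identical to that of the far more abundant Ugt2b5 and 37.4% of its stretches are shared.

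Smaller rises were found in Ugt2b34 and Ugt2b35. Ugt2b34 was at 456 and 389 CPM in KO-labelled libraries and at 333 and 321 CPM in WT-labelled libraries, and rose by 0.37 log2 units (edgeR adjusted p 0.000549), a call lost without WT replicate 2 (adjusted p 0.0724). Ugt2b35 was at 191 and 175 CPM, against 157 and 155 CPM, and rose by 0.23 log2 units (edgeR adjusted p 0.00795). The call for Ugt2b35 was lost without WT replicate 1 (adjusted p 0.108) or WT replicate 2 (adjusted p 0.135). Ugt2b37 was at 3.41 and 5.58 CPM in KO-labelled libraries and at 4.63 and 3.90 CPM in WT-labelled libraries, with the groups overlapping (log2 fold change 0.08, SE 0.23, edgeR adjusted p 0.836). The Ugt2b sum was 2119 ± 146 CPM under the KO label and 1209 ± 7.12 CPM under the WT label (SD, n = 2 each), a 1.75-fold ratio.

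The promoter windows of Ugt2b5, Ugt2b37 and Ugt2b38 are shown because they are close copies of each other in front of genes whose log2 fold changes were 1.05, 0.08 and 3.37. They lie on the minus strand at chr5:87140291-87140590 (Ugt2b5), chr5:87254739-87255038 (Ugt2b37) and chr5:87424154-87424453 (Ugt2b38), and capitals mark AGGTCA.
Ugt2b38: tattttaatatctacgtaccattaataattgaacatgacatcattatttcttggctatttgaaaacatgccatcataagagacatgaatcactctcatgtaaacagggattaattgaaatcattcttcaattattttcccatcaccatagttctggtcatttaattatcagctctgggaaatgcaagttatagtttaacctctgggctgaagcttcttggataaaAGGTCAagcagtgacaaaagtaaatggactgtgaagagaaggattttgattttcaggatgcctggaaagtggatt
Ugt2b37: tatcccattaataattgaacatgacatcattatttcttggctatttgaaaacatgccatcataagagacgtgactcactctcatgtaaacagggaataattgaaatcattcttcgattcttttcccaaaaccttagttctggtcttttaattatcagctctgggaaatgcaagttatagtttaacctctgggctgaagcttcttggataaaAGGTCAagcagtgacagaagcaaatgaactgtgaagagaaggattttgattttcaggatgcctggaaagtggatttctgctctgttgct
Ugt2b5: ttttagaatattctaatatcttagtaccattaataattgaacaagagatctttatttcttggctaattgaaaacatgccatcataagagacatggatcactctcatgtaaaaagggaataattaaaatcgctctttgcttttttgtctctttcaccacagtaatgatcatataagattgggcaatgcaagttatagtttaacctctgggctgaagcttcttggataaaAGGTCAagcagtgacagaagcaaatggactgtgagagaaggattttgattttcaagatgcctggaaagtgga
Aligned, the Ugt2b37 and Ugt2b38 windows are 86.9% identical, those of Ugt2b38 and Ugt2b5 84.2%, and those of Ugt2b37 and Ugt2b5 76.2%. The AGGTCA match starts 25 bases before the RefSeq start in Ugt2b38, 39 bases before it in Ugt2b37 and 22 bases before it in Ugt2b5. Searched on both strands, AGGTCA was present in 10 of 31 member windows and in 16.2% of all windows. AGGTCA was present in 5 of 14 members with a window that rose and in 2 of 8 that fell. Ugt2b35, Ugt2b36, Ugt2b37, Ugt2b38 and Ugt2b5 are among the 10, and all of these but Ugt2b37 are among the 5 that rose. Windows of related genes are not independent, so these counts show no excess of the motif.

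Ugt2a3 and both Ugt3a genes rose as well. Ugt2a3 (chr5:87324972-87337195, minus strand), which conjugates bile acids in humans and was the single Ugt2a gene above the count minimum, was at 270 and 264 CPM in KO-labelled libraries and at 173 and 176 CPM in WT-labelled libraries. It rose by 0.62 log2 units (SE 0.06, edgeR adjusted p 4.30e-07). Ugt3a2 (ENSMUSG00000049152, chr15:9335550-9370955, plus strand) was at 218 and 190 CPM under the KO label and at 82.1 and 81.9 CPM under the WT label, and rose by 1.31 log2 units (SE 0.07, edgeR adjusted p 7.46e-10). Ugt3a1 (chr15:9276888-9315032), its neighbour, was at 19.6 and 17.8 CPM, against 6.48 and 5.09 CPM, and rose by 1.69 (SE 0.14, edgeR adjusted p 1.03e-07). UGT3A enzymes in humans use sugars other than glucuronic acid, UDP-N-acetylglucosamine or UDP-glucose. The coding sequences of the pair are 93.2% identical.

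The Sult1 family, phenol and estrogen sulfotransferases, was the only family of 3 or more members in which none rose: 2 fell and 3 were not called (median -0.77). Sult1a1 (ENSMUSG00000030711, chr7:126672865-126676432, minus strand), the main phenol sulfotransferase of liver and the family's highest per kb (169 CPM per kb under the KO label and 325 under the WT label), was at 243 and 267 CPM in KO-labelled libraries, against 499 and 480 CPM in WT-labelled libraries. It fell by 0.94 log2 units (SE 0.06, edgeR adjusted p 5.35e-09). Sult1e1 (ENSMUSG00000029272, chr5:87575969-87591594, minus strand), the estrogen sulfotransferase, was at 18.2 and 14.7 CPM under the KO label and at 51.7 and 50.3 CPM under the WT label, and fell by 1.63 (SE 0.10, edgeR adjusted p 2.36e-09). The Sult1 sum was 411 ± 11.7 CPM in KO-labelled libraries and 700 ± 12.7 CPM in WT-labelled libraries (SD, n = 2 each), a ratio of 0.588.

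The remaining Sult1 genes were not called. Sult1b1, which sulfates thyroid hormones, lay more than 1 log2 unit above the family median, with 11.2 and 12.4 CPM in KO-labelled libraries and 10.2 and 9.56 CPM in WT-labelled libraries (log2 fold change 0.26, SE 0.13, edgeR adjusted p 0.134). Sult1c2 was at 1.16 and 0.977 CPM, against 1.79 and 1.87 CPM (log2 fold change -0.77, edgeR adjusted p 0.0839). Sult1d1, a catecholamine sulfotransferase of mice, was at 146 and 108 CPM in KO-labelled libraries and at 146 and 149 CPM in WT-labelled libraries. One library decided this value: the log2 fold change was -0.22 with all libraries (edgeR adjusted p 0.102), -0.44 without KO replicate 1 (adjusted p 1.09e-10) and -0.01 without KO replicate 2. With the replicate number as a block it was -0.23 (edgeR adjusted p 0.00406).

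The Sult2 family, hydroxysteroid and bile acid sulfotransferases clustered on chromosome 7, held the largest rise among all 40 genes. Sult2a8 (ENSMUSG00000030378, chr7:14410686-14446769, minus strand), a bile acid sulfotransferase of mouse liver, had 4557 and 3719 counts in KO-labelled libraries, against 35 and 24 counts in WT-labelled libraries. Scaled to depth this was 264 and 214 CPM under the KO label and 1.84 and 1.25 CPM under the WT label, with the replicates of each label close together beside the gap between labels. The rise was 7.27 log2 units (SE 0.15, edgeR adjusted p 5.71e-15), or 154-fold, and it was 7.02 to 7.58 when any 1 library was left out. Only 1.96% of its 50-base stretches occur in another gene. Sult2a8 made up 34.0% of the CPM of all 11 sulfotransferases in KO-labelled libraries and 0.219% in WT-labelled libraries. The share of Sult1a1 was 36.3% under the KO label and 69.3% under the WT label, so the near-equal class sums were made up of different shares of these genes.

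Sult2a1 and Sult2a2, at low levels under the WT label, rose, and Sult2a5 beside them was not called. Sult2a1 (ENSMUSG00000078798, chr7:13796246-13837409, minus strand), which sulfates DHEA and other hydroxysteroids, had 450 and 291 counts in KO-labelled libraries, against 10 and 8 in WT-labelled libraries. Its log2 fold change was 5.48 (SE 0.29, edgeR adjusted p 6.17e-10), and the ratio of counts on the scaled library sizes was 45.4 (95% counting interval 28.5 to 77.0). Sult2a2 (chr7:13733505-13779636, plus strand) was at 23.6 and 15.6 CPM under the KO label and at 3.16 and 2.91 CPM under the WT label, and rose by 2.69 (SE 0.20, edgeR adjusted p 2.99e-08). Sult2a5 (chr7:13623967-13670807) was at 0.926 and 0.632 CPM, against 0.685 and 0.312 CPM, with the groups overlapping (log2 fold change 0.64, SE 0.51, edgeR adjusted p 0.365). The coding sequences of Sult2a1 and Sult2a5 are 94.9% identical. Shared stretches made up 62.1% of Sult2a2, 34.5% of Sult2a5 and 33.2% of Sult2a1, so the split of reads among these 3 is uncertain, unlike that of Sult2a8.

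The promoter windows of Sult2a8 and Sult2a5 are shown as the family's largest change and the member of the same cluster that was not called. The windows lie at chr7:14446538-14446837 on the minus strand (Sult2a8) and chr7:13623717-13624016 on the plus strand (Sult2a5).
Sult2a8: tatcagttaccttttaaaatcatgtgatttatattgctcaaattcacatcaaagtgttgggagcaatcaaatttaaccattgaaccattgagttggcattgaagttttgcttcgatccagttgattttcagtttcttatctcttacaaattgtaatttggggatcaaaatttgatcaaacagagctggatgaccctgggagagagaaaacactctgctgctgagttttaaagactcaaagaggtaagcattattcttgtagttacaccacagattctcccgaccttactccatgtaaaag
Sult2a5: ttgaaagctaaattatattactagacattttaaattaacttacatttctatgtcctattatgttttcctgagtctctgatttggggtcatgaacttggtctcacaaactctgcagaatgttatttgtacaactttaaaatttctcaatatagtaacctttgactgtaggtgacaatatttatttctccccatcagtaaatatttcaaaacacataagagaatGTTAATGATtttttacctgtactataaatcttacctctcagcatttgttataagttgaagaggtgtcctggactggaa
They are 48.2% identical. Capitals mark GTTAATNAT, 28 bases before the start of Sult2a5, and none of the 5 searched motifs has a match in the Sult2a8 window shown. RefSeq held 2 windows for Sult2a8, and only the window nearest the annotated gene start was used here. The other 3 motifs searched were TTCNNNGAA, a STAT motif (8.33% of all windows, 1 of 31 members), GCGTG, the core of the aryl hydrocarbon receptor motif (32.6%, 2 of 31), and TGACNNNGC, a motif of NRF2 (12.4%, 0 of 31).

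**Figure D3:**
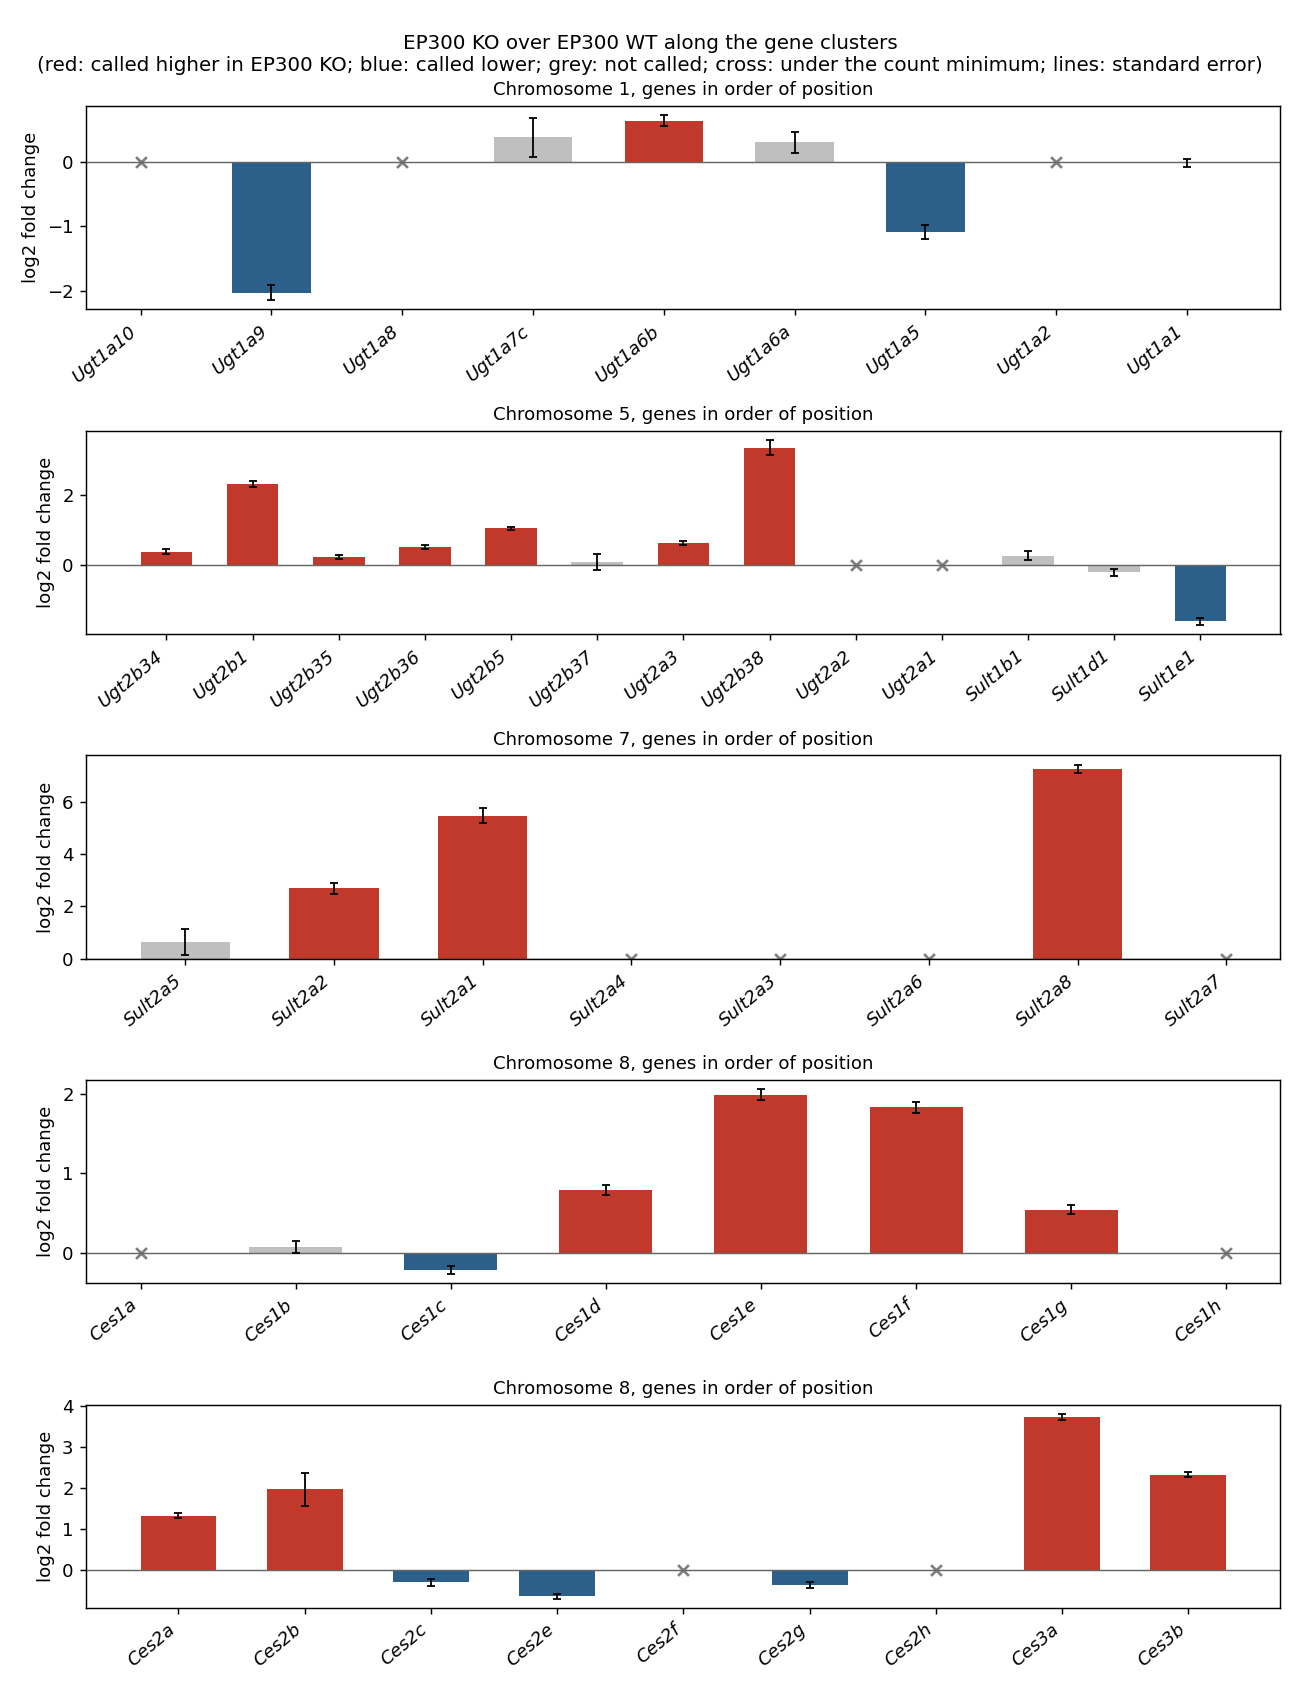
Log2 fold change (EP300 KO over EP300 WT, lines: standard error) of the genes in their order along 5 clusters: Ugt1a, Ugt2 with Sult1, Sult2a, the Ces1 block, and the Ces2 and Ces3 block; red bars were called higher, blue bars called lower, grey bars not called, and crosses were under the count minimum. Ugt2 genes of the chromosome 5 cluster are red or grey while Sult1e1 at its end is blue, and in the last panel Ces2c, Ces2e and Ces2g are blue between red Ces2a and Ces2b on the left and red Ces3a and Ces3b on the right.

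Gene order and direction did not run together in every cluster. On chromosome 5, all 7 called Ugt2 genes between Ugt2b34 and Ugt2b38 rose, and Sult1e1, the last gene of the same cluster, fell. On chromosome 8, Ces1d, Ces1e, Ces1f and Ces1g, which lie side by side, all rose, and Ces1c before them fell. In the Ces2 and Ces3 block, Ces2c, Ces2e and Ces2g fell between Ces2a and Ces2b on one side and Ces3a and Ces3b on the other, all 4 of which rose. Likeness of coding sequence went with likeness of change in some close pairs only. Sult2a1 and Sult2a5, 94.9% identical, differed by 4.84 in log2 fold change, and Ugt2b37 and Ugt2b38, 94.1% identical, by 3.29. Ugt1a6a and Ugt1a6b, 98.4% identical, differed by 0.34, and Ugt3a1 and Ugt3a2, 93.2% identical, by 0.38. Identities of Ugt1a pairs include the last exons that those genes share, so they are not a like measure to those of the other pairs. The split of reads between such close copies is uncertain, and Sult2a5 had only 27 counts under the KO label and 19 under the WT label. The differences in fold change within pairs were described and not tested.

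**Figure D4:**
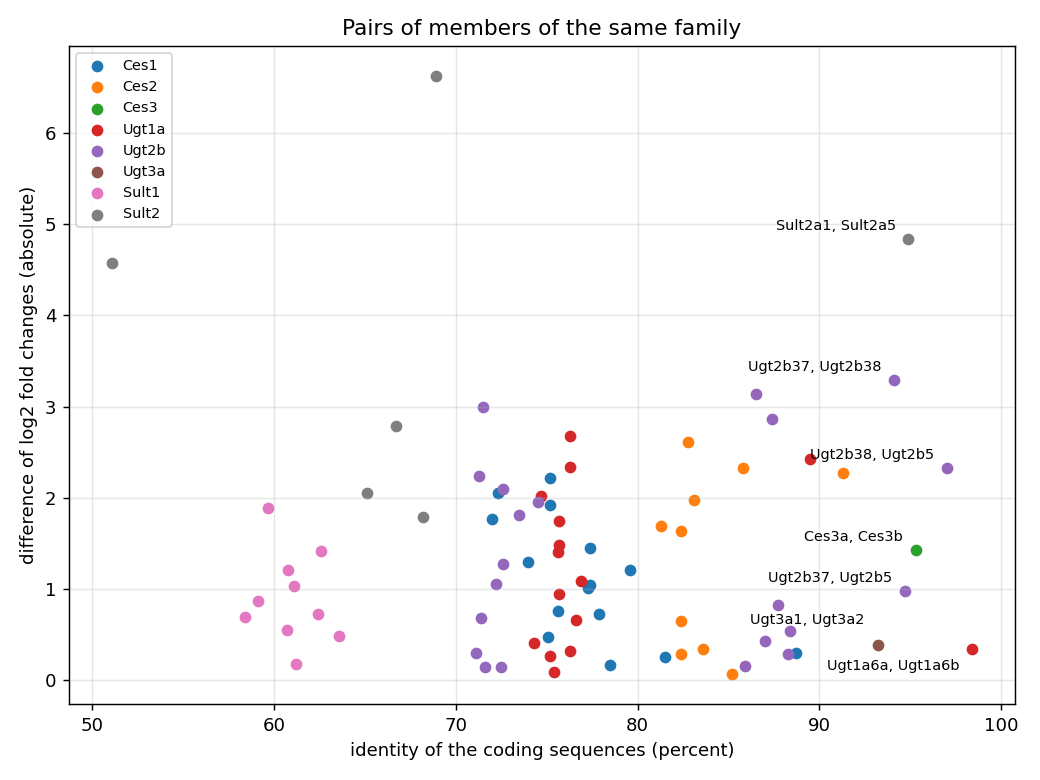
Absolute difference of log2 fold changes (EP300 KO over EP300 WT) between 2 members of a family, against the percent identity of their coding sequences, 1 point per pair and 1 colour per family; pairs of 93% identity or more are named. At that identity the differences run from 0.34 for Ugt1a6a and Ugt1a6b to 4.84 for Sult2a1 and Sult2a5. Identities of Ugt1a pairs include the last exons that those genes share.

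Both Sult genes outside the main families changed at low counts. Sult5a1 (ENSMUSG00000000739, chr8:123140192-123158315, minus strand) had 184 and 172 counts in KO-labelled libraries, against 1 and 2 counts in WT-labelled libraries. The ratio of scaled counts was 131 (95% counting interval 44.4 to 637), and the fitted value of 6.91 log2 units (SE 0.35, edgeR adjusted p 3.76e-10) depends on the small count added to the WT-labelled values. Sult4a1 (ENSMUSG00000018865, chr15:84076097-84105754, minus strand), a sulfotransferase-like protein known mainly from brain, had 2 and 4 counts under the KO label and 32 and 22 counts under the WT label. It fell by 2.98 log2 units (SE 0.54, edgeR adjusted p 0.000472), with a ratio of 0.123 (counting interval 0.0431 to 0.284). Counting intervals cover counting error only.

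**Figure D5:**
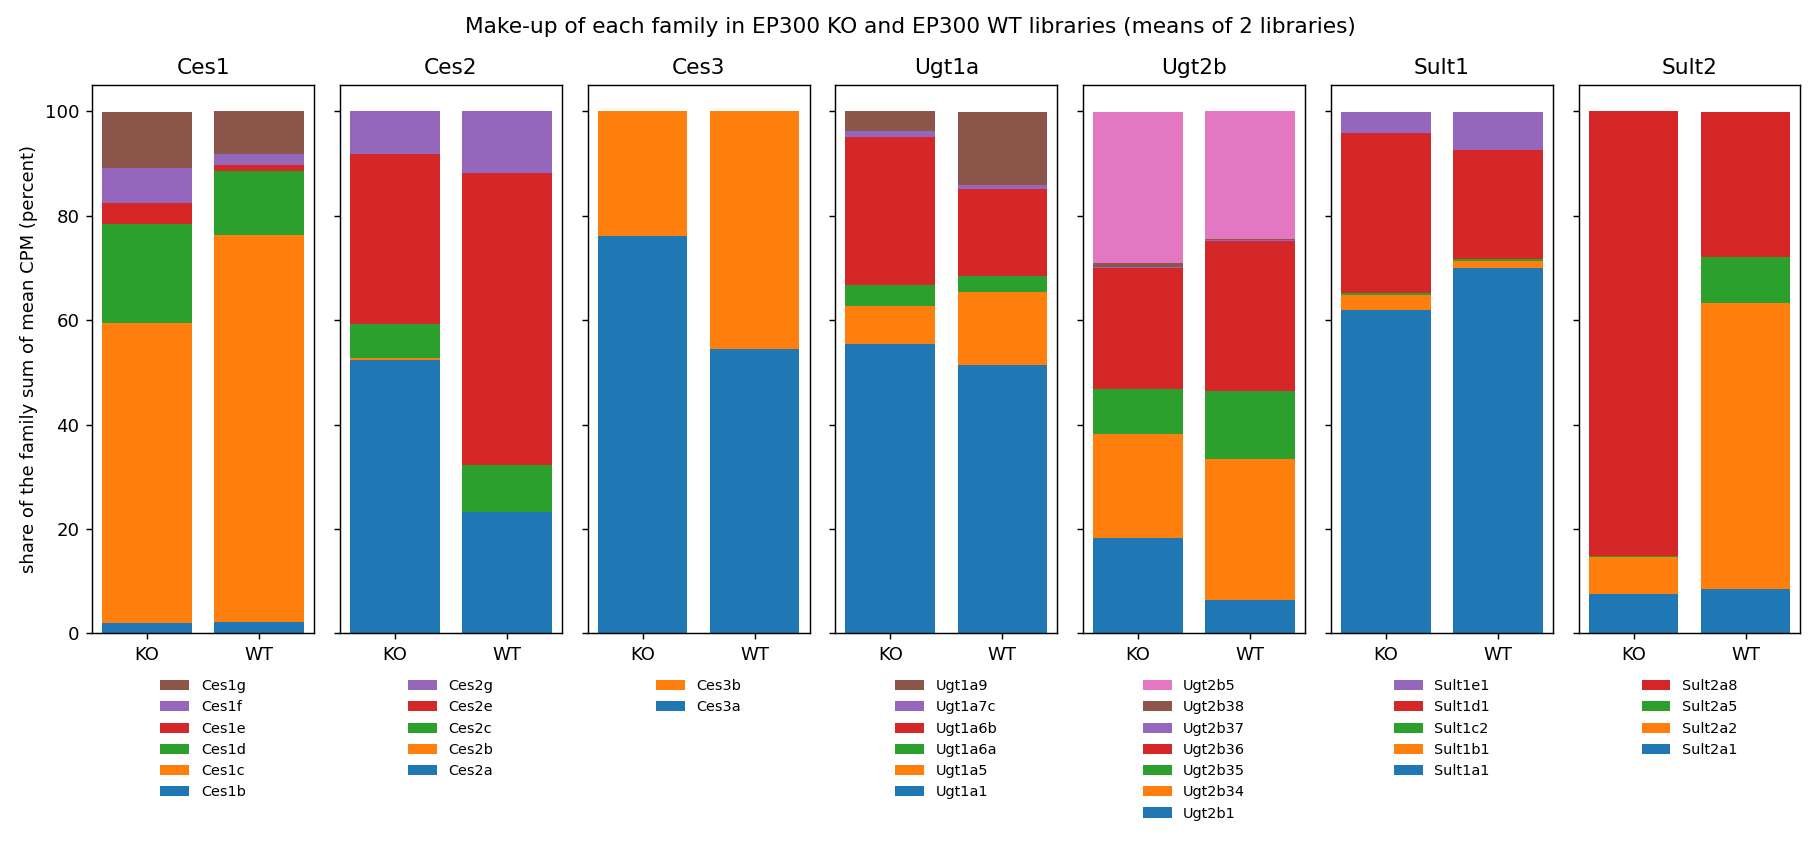
Share of each member in the summed mean CPM of its family (percent, stacked bars from 0 to 100), in EP300 KO (left bar) and EP300 WT (right bar) libraries, for 7 families of 2 or more members. The leading gene differs in Ces2, where Ces2a holds 52.4% in EP300 KO and 23.2% in EP300 WT, in Ugt2b, where Ugt2b5 holds 29.0% in EP300 KO and Ugt2b36 28.7% in EP300 WT, and in Sult2, where Sult2a8 holds 85.1% in EP300 KO and 27.8% in EP300 WT; Ces1c, Ugt1a1 and Sult1a1 lead their families in both.

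The other 19 genes with matching symbols stayed under the count minimum and were not tested. They are Ces1a, Ces1h, Ces2f, Ces2h, Ugt1a2, Ugt1a8, Ugt1a10, Ugt2a1, Ugt2a2, Sult1c1, Sult2a3, Sult2a4, Sult2a6, Sult2a7, Sult2b1, Sult3a1, Sult3a2, Sult6b1 and Sult6b2. Sult2a7, next to Sult2a8, had 7 and 10 counts in KO-labelled libraries and 0 in both WT-labelled libraries. Sult3a1 had 4 and 0 counts under the KO label and 7 and 6 under the WT label.

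Several members are known to differ between male and female mouse liver, and a sex-linked transcript separated the labels. Xist, which is transcribed from an inactive X chromosome, had 2310 and 1411 counts in KO-labelled libraries, against 3 and 2 in WT-labelled libraries. Of 4 Y-linked genes none was called, and Ddx3y had 954 and 813 counts under the KO label and 1079 and 1077 under the WT label. Of the genes listed as higher in females, Sult2a1 and Sult2a2 rose, Sult1a1 and Ugt1a5 fell, Ugt1a1 was not called, and Sult3a1 was not tested. Ugt2b1 and Ugt2b38, which are higher in males, both rose. Both KO-labelled libraries thus held Xist beside Y-linked transcripts, while the WT-labelled libraries held Y-linked transcripts with almost no Xist. Sex and label cannot be told apart in these libraries, and the part of sex in the results was not tested.

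Genes that supply, follow or regulate these enzymes were counted beside them. Over 9 lists of such genes, 37 of 84 tested genes rose and 16 fell. Among all genes tested, 16.7% were called higher and 17.5% lower, shares to be read beside each list count below. UDP-glucuronic acid supply had 1 gene higher and 2 lower of 3 (median -0.22), with Ugdh, which makes UDP-glucuronic acid, at 192 and 203 CPM in KO-labelled libraries, against 222 and 237 CPM in WT-labelled libraries, a fall of 0.22 log2 units. The Ugdh call was lost without WT replicate 1 (edgeR adjusted p 0.0772), without WT replicate 2 (log2 fold change -0.16, edgeR adjusted p 0.27) and under no filter (0.119), and in each of these settings the list had 0 genes higher and 1 lower. Sulfate and PAPS supply had 2 of 9 genes higher and 1 lower (median 0.14), with 4 higher when 1 or the other KO replicate was left out and 0 lower when 1 or the other WT replicate was left out. Conjugate hydrolases had 3 of 4 tested genes higher and none lower (median 0.25), among them Gusb, the β-glucuronidase that Ces1e retains, which rose by 0.23. Library size alone, no filter, and leaving out WT replicate 1 or 2 each left 1 gene of that list higher, and Gusb lost its call in all 4 settings (edgeR adjusted p 0.0652, 0.0711, 0.185 and 0.0861).

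Of 4 conjugate export pumps, 3 rose and 1 fell. The exception, Abcc4, a pump of the blood-facing membrane, was at 22.7 and 25.1 CPM in KO-labelled libraries, against 73.0 and 68.6 CPM in WT-labelled libraries, and fell by 1.57 log2 units (SE 0.08, edgeR adjusted p 4.71e-10). Among other conjugation enzymes 7 of 12 rose and 2 fell (median 0.54), with Inmt, an indole N-methyltransferase, at 292 and 284 CPM under the KO label and at 127 and 125 CPM under the WT label (log2 fold change 1.20, SE 0.06, edgeR adjusted p 2.03e-10). Among other ester and lipid hydrolases 9 of 15 rose and 2 fell (median 0.49). Without WT replicate 2, 1 gene of each of these 2 lists fell. In that list the monoacylglycerol lipase Mgll was at 90.8 and 80.2 CPM under the KO label and at 33.5 and 31.1 CPM under the WT label (log2 fold change 1.41), and the hepatic lipase Lipc rose by 1.07. Carbohydrate and tyrosine sulfotransferases, which act in the Golgi and not on small molecules, had 3 of 16 tested genes higher and 1 lower, or 2 lower under library size alone (median -0.11). Of 3 relatives that the symbols leave out, Ces4a alone could be tested, at 17 and 10 counts under the KO label and 7 and 1 under the WT label (log2 fold change 1.86, SE 0.66, edgeR adjusted p 0.0391). That call was lost by DESeq2 (adjusted p 0.175), under no filter (0.243), without KO replicate 1 (0.264) and without WT replicate 2, where the log2 fold change was 1.08 (edgeR adjusted p 0.345).

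Of 20 regulators known to act on these gene families, 8 rose and 7 fell (median 0.10). Without WT replicate 1 the counts were 5 and 4, and without WT replicate 2 they were 4 and 4. The xenobiotic receptors Nr1i2 (PXR) and Nr1i3 (CAR) rose by 0.37 and 0.40 log2 units, and the call of Nr1i3 was lost without WT replicate 1 (edgeR adjusted p 0.0569), without WT replicate 2 (0.0652) and under no filter (0.0547). The largest changes were in genes tied to growth hormone signalling and sex-biased transcription in liver. Bcl6, a repressor of STAT5 targets that is higher in males, was at 51.7 and 45.6 CPM in KO-labelled libraries, against 7.58 and 5.66 CPM in WT-labelled libraries, and rose by 2.88 (SE 0.12, edgeR adjusted p 3.6e-11). Cux2, a female-specific factor, was at 25.5 and 15.9 CPM under the KO label and at 63.0 and 62.9 CPM under the WT label, and fell by 1.61 (SE 0.14, edgeR adjusted p 1.49e-07). Ghr, the growth hormone receptor, was at 360 and 309 CPM under the KO label and at 129 and 133 CPM under the WT label, and rose by 1.35 (SE 0.07, edgeR adjusted p 4.72e-10).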

How the data were processed

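RNA libraries of 2 EP300 KO and 2 EP300 WT samples were analysed. Raw counts per gene came from 1 table that the authors deposited, whose 4 further columns matched no sample and were not used. The submitters' processing notes name the build mm10 and the tools STAR, HTSeq and DESeq2 without saying what each was used for. The deposited counts carry the name of another aligner, HISAT, so the aligner behind them is not clear. The annotation was not given in the sources used here. The TruSeq kit named in the labels does not mark strand, so reads of overlapping genes on opposite strands cannot be told apart. Symbols, coordinates and transcripts came from GENCODE M21 (mm10), in which 55144 of 55385 identifiers matched, and promoter windows from RefSeq (GRCm38.p6), which held 31 of the 40 members. Ces1d, Ces1f, Ces2b, Ces3a, Ugt1a6b, Ugt3a2, Sult2a1, Sult2a2 and Sult4a1 had no window in the table.

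Counts were tested with edgeR 4.0.16 in R 4.3.3 (the quasi-likelihood test after TMM scaling; genes kept by filterByExpr at a count minimum of 10; no term but the group; Benjamini-Hochberg adjustment over 14200 genes, threshold 0.05, 2 residual degrees of freedom). CPM values are counts on TMM-scaled library sizes. Each SE was taken as the size of the log2 fold change over the root of its F value. The biological coefficient of variation was 5.47%. Libraries of a label differed by more than sampling noise, with a chi-square per degree of freedom of 5.94 for EP300 KO and 2.72 for EP300 WT. Same-numbered libraries did not deviate together (correlation 0.00942 over 12817 genes), so the numbers were not taken as pairs. On simulated counts, 72%, 80%, 100% and 92% of 50 genes each changed 1.5-, 2-, 4- and 8-fold were recovered in this comparison over 13970 genes, with 4 false calls. Every simulated gene had the same spread under both labels, unlike the real libraries, so these rates need not hold for the real counts.

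The members, gene lists and rules were chosen with earlier results of these data known. Every member is named. Full statistics are given for the highest level per kb of a family, called members with a log2 fold change of at least 1 in size, members more than 1 from the median of a family of 3 or more, and members called against their family's direction. Pathway genes are named in full where called with a log2 fold change of at least 1 in size, at most 3 a list. The few others named were chosen after their values were seen. Percent identity comes from global alignments with Biopython 1.88. A planned search for motifs in the members' proteins was not run. Alternatives were other scalings, filters and tests (DESeq2 1.42.0, limma-voom from limma 3.58.1), the replicate block and each library left out.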

Additional observations from a re-analysis of the deposited data

How the results depend on the processing

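Among the 40 members, the count called higher was 19 to 22 over the alternatives and the count called lower 6 to 10, and no called member changed direction in the 480 member values computed. Of the 31 called members, 25 kept their call in every alternative and 6 lost it in at least 1 (Ces1c, Ces2b, Ces2c, Ces2g, Ugt2b34 and Ugt2b35), while Sult1d1 gained one. Without the 12 members that share over 30% of their 50-base stretches with other genes, a choice made after seeing the data, 17 of the remaining 28 were higher and 6 lower. Over all genes, the count called higher was 2366, with 1846 under library size alone, 1416 under no filter on low counts and 1160 to 2574 when 1 library was left out. For lower genes the count was 2485, with 3056 under library size alone, 1614 by DESeq2, 1287 under no filter and 1146 to 2580 when 1 library was left out. The lowest counts came without WT replicate 2, which left the lone WT library assumed to vary like the KO pair. Pathway genes called lower were 16, and 9 to 16 with 1 library left out.

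The log2 ratios of family sums with library size alone were 0.09 for Ces1, 0.08 for Ces2, 3.20 for Ces3, -0.19 for Ugt1a, 0.55 for Ugt2a and -0.83 for Sult1, where the median of all genes was -0.07 in place of -0.01. With 1 library left out the ratio was 0.74 to 0.88 for Ugt2b, 1.24 to 1.44 for Ugt3a and 2.59 to 3.07 for Sult4 to Sult6 together.

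With the replicate number as a block, a pairing that the labels do not state, 2526 genes were higher and 2664 lower, and 22 members were higher and 10 lower. Genes with few counts (Ces2b, Sult2a5, Sult4a1, Sult5a1) are limited by depth, and members that share sequence by how reads were assigned.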
